A study of Mus musculus with 9 samples.

Results

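The glycine receptor subunits are the 5 genes Glra1, Glra2, Glra3, Glra4 and Glrb, taken by symbol from the 22337 genes measured in mouse retina. They were chosen because Glra1 was higher with MSC-EVs, that is, the family was chosen by the Glra1 counts and FPKM measured in the MSC-EVs-treated and NS-treated libraries. For that reason the values of all 5 genes between these groups are given as a description with no test. All 5 genes passed the filter on low counts in every comparison.

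RNA-seq was carried out on retinas at P28 in 3 groups of 3 libraries. WT mice were C57 BL/6J and received no treatment, whereas both other groups were rd10 mice, which carry a homozygous mutation in Pde6b, the beta subunit of the rod phosphodiesterase, and lose their rods. The rd10 littermates received 1 μl of NS (normal saline) or of MSC-EVs (extracellular vesicles from mesenchymal stem cells of human umbilical cord) in both eyes at P14 and again at P21. The rd10 and WT mice came from different suppliers, and WT eyes were not injected, so genotype, injection and source of the animals cannot be told apart between WT and rd10. The labels name the vitreous as the site in one field and an intravenous route in another.

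Glycine receptors are chloride channels assembled from alpha subunits, which carry most of the glycine binding site and set the kinetics of the channel, and the beta subunit Glrb, which binds gephyrin and holds the receptor at the synapse. In the retina they receive glycine from narrow-field amacrine cells, among them the AII cell of the rod pathway, and they sit on bipolar, amacrine and ganglion cells. Each alpha subunit marks its own set of glycinergic synapses there, with Glra1 found at fast synapses onto bipolar terminals and some ganglion cells.

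Since the subunits are paralogs, their sequences show whether reads of one could be counted for another. The coding sequences of the alpha subunits were 70.3% to 73.8% identical to each other and 53.5% to 54.8% identical to Glrb. The stretch of 45 coding bases in which the 5 genes were most alike is shown, in GENCODE M21 models on GRCm38, with capitals at the positions where the 5 differ. It is at chr11:55536349-55536393 on the minus strand for Glra1, in exon 4 of 9, and at chrX:165281891-165281935 on the minus strand for Glra2, in exon 4 of 9. It is at chr8:56039693-56039737 on the plus strand for Glra3, in exon 4 of 10, at chrX:136774617-136774661 on the minus strand for Glra4, in exon 4 of 9, and at chr3:80861960-80862004 on the minus strand for Glrb, in exon 5 of 10.
Glra1: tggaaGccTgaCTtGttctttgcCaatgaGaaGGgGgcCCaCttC
Glra2: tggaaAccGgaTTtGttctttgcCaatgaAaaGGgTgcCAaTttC
Glra3: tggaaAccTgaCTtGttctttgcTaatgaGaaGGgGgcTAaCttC
Glra4: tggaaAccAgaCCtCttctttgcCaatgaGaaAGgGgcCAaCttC
Glrb: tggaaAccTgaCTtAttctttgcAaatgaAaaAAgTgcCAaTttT
Even here only 31 of the 45 bases were shared by all 5 genes, and Glra1 differed from Glra3 at 4 positions, from Glra4 at 6, from Glra2 at 7 and from Glrb at 10. No stretch of 50 bases in any annotated transcript was common to 2 subunits. Glra1 (ENSMUSG00000000263, chr11:55514238-55608198) is overlapped on the opposite strand by Gm12236, with which it shares 3.74% of its 50-base stretches, and by Gm12237. Neither of these is among the genes measured, and the sources used here do not say whether reads were counted by strand. Glra2 (ENSMUSG00000018589, chrX:165129017-165327393), Glra3 (ENSMUSG00000038257, chr8:55940460-56130070) and Glra4 (ENSMUSG00000018595, chrX:136757674-136780141) shared no such stretch with another gene, and Glrb (ENSMUSG00000028020, chr3:80843599-80913660) shared 2.65% of its stretches with unrelated genes.

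The libraries held 19491721 to 62532357 estimated counts, with MSC-EVs replicate 3 the deepest. The 10 rod markers summed to 73200 to 78600 CPM (counts scaled to library size and TMM factors) in WT, 14700 to 21100 in NS-treated and 15300 to 21400 in MSC-EVs-treated rd10 libraries, so the tissue label and the rd10 label fit the rod genes. A set of 4 Y-linked genes summed to 183 and 189 CPM in MSC-EVs replicates 1 and 2 and to 0.237 to 0.501 CPM in the other 7 libraries (the labels give no sex). The 4 brainstem and spinal cord neuron genes followed were at 0 in every library.

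All subunits were detected in every library. On the FPKM scale, which is per length and lets genes be compared, Glrb had the highest level in each library. Its mean level was 28.1 FPKM ± 2.75 (SD, n = 3) in WT, 42.4 ± 0.682 in NS-treated and 38.8 ± 2 in MSC-EVs-treated rd10. Glra2 came next at 7.23 FPKM ± 0.155 in WT, 10.7 ± 0.476 in NS-treated and 9.47 ± 0.389 in MSC-EVs-treated rd10. Glra4 was the lowest in every library, with mean levels of 1.06 FPKM ± 0.0896, 1.66 ± 0.255 and 1.37 ± 0.435 in the same order of groups.

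The places of Glra1 and Glra3 between Glra2 and Glra4 changed with the group. In WT their FPKM levels overlapped, at 4.45, 3.38 and 2.48 for Glra1 and 4.3, 3.01 and 4.2 for Glra3 in replicates 1, 2 and 3. In NS-treated rd10 every Glra3 level (7.51, 7.16 and 7.95 FPKM) lay above every Glra1 level (4.32, 2.42 and 2.85 FPKM). With MSC-EVs the pair overlapped again, at 9, 7.96 and 9.16 FPKM for Glra1 and 8.56, 6.87 and 7.31 FPKM for Glra3, and the highest Glra1 library stood just under the lowest Glra2 library, at 9.18 FPKM.

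**Figure D1:**
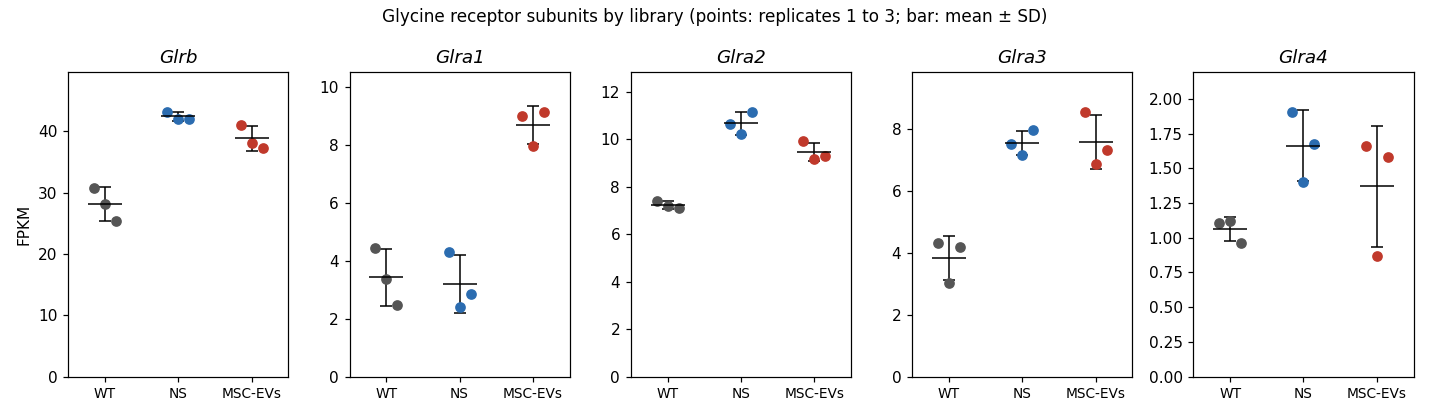
FPKM of each glycine receptor subunit (vertical axis, from 0, a separate scale for each gene) in the 3 WT, 3 NS-treated and 3 MSC-EVs-treated libraries. Points are libraries and bars are the mean ± SD; the MSC-EVs libraries of Glra1 (7.96 to 9.16 FPKM) stand above both other groups (2.42 to 4.45 FPKM), while those of Glra2 and Glrb stand between WT and NS-treated libraries.

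The first comparison was between NS-treated rd10 and WT retina, with 3 libraries against 3, and asked whether the receptor changed as rods were lost. Glrb, Glra3 and Glra2 were higher in NS-treated rd10, and Glra4 did not pass the test, so 3 of the 4 subunits tested were called higher and 0 lower. Among all 14644 genes tested, 31.2% were called higher and 30.1% lower. Differences are log2 fold changes of TMM-scaled counts, with the standard error and the adjusted p of edgeR's quasi-likelihood test (Benjamini-Hochberg, across every gene in the fit), and a gene was called at an adjusted p under 0.05. Glra1 is given without a test here too, because its NS-treated values entered the choice of the family.

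Glrb, the anchoring subunit, was at 93.5, 85.9 and 81.4 CPM in WT replicates 1, 2 and 3 and at 121, 117 and 119 CPM in NS-treated rd10. All NS-treated libraries were above all WT libraries. The difference was 0.45 ± 0.06 (SE) on the log2 scale, or 1.37-fold, with an edgeR adjusted p of 5.12e-05.

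Glra3, an alpha subunit of slower glycinergic synapses, showed the largest difference among the 5, from 30.3, 21 and 29.7 CPM in WT to 47.2, 44.5 and 49.2 CPM in NS-treated rd10. The groups did not overlap. Its log2 difference was 0.80 ± 0.12 (SE), or 1.74-fold, with an edgeR adjusted p of 0.000223.

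Glra2, the alpha subunit best known from immature neurons and kept in the adult retina, was at 25.3, 24.3 and 24.3 CPM in WT and at 32.4, 30.7 and 33.4 CPM in NS-treated rd10. The groups were again separate, and the WT libraries lay within a narrow range (24.6 ± 0.558 CPM, SD, n = 3). The log2 difference was 0.38 ± 0.07 (SE), with an edgeR adjusted p of 0.000651.

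Glra4 was the least abundant subunit and rested on 38 to 100 counts per library in these groups. It was at 2.2, 2.19 and 1.9 CPM in WT and at 3.38, 2.45 and 2.93 CPM in NS-treated rd10. Although the groups did not overlap, which 66.9% of all genes tested also showed, the log2 difference of 0.48 ± 0.21 (SE) had an edgeR adjusted p of 0.0689. The call depended on the library and on the measure. Without NS replicate 2 the log2 difference was 0.59 with an edgeR adjusted p of 0.0389. With all libraries, limma on log2(FPKM + 1) gave an adjusted p of 0.0104, whereas the DESeq2 Wald test on counts gave 0.146.

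The level of Glra1 was 11.4, 8.46 and 6.21 CPM in WT and 9.87, 5.29 and 6.41 CPM in NS-treated rd10, on 108 to 292 counts per library, and the groups overlapped. The log2 difference was -0.26 ± 0.28 (SE), and single libraries moved it, from -0.02 without WT replicate 1 to -0.58 without NS replicate 1. Its coefficient of variation was 30% in WT and 33.2% in NS-treated rd10, where the median over all genes was 6.1% and 8.09%. The 10 ganglion cell markers also spread within WT, summing to 1450, 1310 and 1100 CPM in replicates 1, 2 and 3, and to 1600, 1410 and 1600 CPM in NS-treated rd10; their part in the Glra1 values was not tested.

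The median log2 difference of the 5 subunits was 0.45, beside 0.005 over all genes tested. Markers of other inner retinal neurons moved in the same direction: 8 of 10 amacrine, 6 of 9 AII and glycinergic amacrine, 7 of 12 bipolar, 6 of 10 ganglion cell and 4 of 5 horizontal cell markers were called higher, with median log2 differences of 0.29, 0.20, 0.26, 0.35 and 0.49. None of the amacrine, AII, ganglion or horizontal cell markers and 2 of the bipolar markers were called lower. All 10 rod markers were called lower, with a median of -1.72. Counts of bulk retina are relative to the library, and rod transcripts made up less of it in rd10. More cells of a type, more RNA per cell and a larger share of the library without more RNA cannot be told apart.

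When libraries were instead scaled to the mean of the bipolar, amacrine and ganglion cell markers, the median over all genes moved to -0.27 and the calls from 4562 higher and 4410 lower to 2305 higher and 7034 lower. On that scale Glra3 was still called higher, at a log2 difference of 0.52 (edgeR adjusted p 0.00153), whereas Glra2 (0.11, adjusted p 0.341) and Glrb (0.18, adjusted p 0.0529) were not. Glra4 was at 0.20 (edgeR adjusted p 0.452) and Glra1, without a test, at -0.54. No subunit changed its sign between these scalings. On log2(FPKM + 1), where the median over all genes moved the other way, to 0.14, and limma called 6034 genes higher and 2403 lower, 4 subunits were called higher, with Glra4 added at 0.37 (limma adjusted p 0.0104).

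The second comparison described the 5 subunits in MSC-EVs-treated against NS-treated rd10, the contrast from which they were chosen. Glra1 was at 20.4, 18 and 20.7 CPM with MSC-EVs, on 487, 421 and 1331 counts, against 9.87, 5.29 and 6.41 CPM with NS. Every MSC-EVs library was above every NS library. The log2 difference was 1.45 ± 0.21 (SE), or 2.72-fold, the 24th highest of the 14765 genes fitted. The coefficient of variation of Glra1 was 7.54% in the MSC-EVs libraries, near the median of 8.83% over all genes there. In NS-treated libraries it was 33.2%, where that median was 8.09%.

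The other subunits lay near their NS-treated levels. Glra3 was at 53.7, 43.1 and 46.3 CPM with MSC-EVs, around its NS-treated values, and its log2 difference was 0.03 ± 0.09 (SE). Glrb (113, 102 and 108 CPM) and Glra2 (30.1, 27.9 and 28.5 CPM) were below all NS-treated libraries, with log2 differences of -0.14 ± 0.06 and -0.15 ± 0.08 (SE). Glra4 (2.93, 1.54 and 2.81 CPM) overlapped its NS-treated values, at -0.25 ± 0.27 (SE) on 36 to 181 counts per MSC-EVs library. Groups without overlap were thus seen for Glra1, Glra2 and Glrb, and among all genes fitted for 26.3%, while 1.16% were called in either direction by edgeR. Since the contrast chose the family, nothing is read from these counts.

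The Y-linked genes set MSC-EVs replicates 1 and 2 apart from all other libraries, and their part in the subunit values was not tested. MSC-EVs replicate 3, without that signal, had 20.7 CPM of Glra1, and as the only MSC-EVs library set against the 3 NS libraries it gave a log2 difference of 1.52, a value with no test. Glra2 and Glra4 are on the X chromosome. Glra2 was at 28.5 CPM in replicate 3, between the values of replicates 1 and 2, and so was Glra4 at 2.81 CPM.

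**Figure D2:**
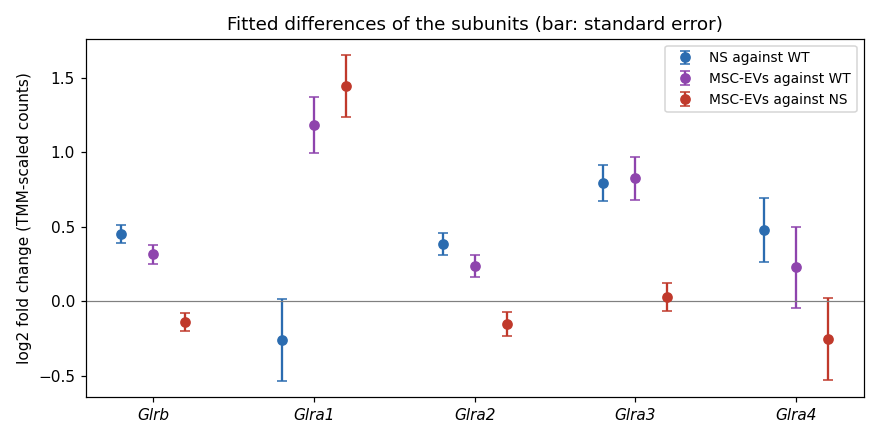
Log2 fold change of each subunit (vertical axis) in the 3 comparisons of groups; points are the fitted difference of TMM-scaled counts and bars its standard error, with 3 libraries per group. Glrb, Glra2 and Glra3 are above 0 in both rd10 groups against WT, whereas Glra1 is above 0 only where MSC-EVs-treated libraries are compared.

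The third comparison was between MSC-EVs-treated rd10 and WT, and Glra1 is given there without a test because its MSC-EVs values chose the family. Its MSC-EVs libraries (18 to 20.7 CPM) were all above the WT libraries (6.21 to 11.4 CPM), with a log2 difference of 1.18 ± 0.19 (SE), or 2.27-fold. Of the 4 subunits tested, Glra3, Glrb and Glra2 were called higher, where 28.3% of 14623 genes tested were. Glra3 was higher by 0.83 ± 0.14 (SE, edgeR adjusted p 0.00162) and Glrb by 0.32 ± 0.07 (SE, edgeR adjusted p 0.00251). Glra2 was higher by 0.23 ± 0.07 (SE) with an edgeR adjusted p of 0.0208. That last call did not hold without WT replicate 2 (adjusted p 0.0782), without WT replicate 3 (0.0668) or without MSC-EVs replicate 1 (0.065). Glra4 differed by 0.23 ± 0.27 (SE), with a 95% interval from -0.30 to 0.76 and an edgeR adjusted p of 0.499, and its groups overlapped. The libraries of Glra1, Glra2, Glra3 and Glrb did not overlap, as was so for 65.2% of all genes tested. Scaled to the inner retinal markers, Glra3 kept its call (0.65, edgeR adjusted p 0.00332), and Glra2 (0.06, adjusted p 0.638) and Glrb (0.14, adjusted p 0.137) did not.

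Since the alpha subunits take places in the same receptor, their shares of the summed alpha FPKM were compared per library. Glra1 made up 25.8, 23 and 16.8% of the alpha FPKM in WT replicates 1, 2 and 3, 17.7, 11.4 and 12.1% in NS-treated rd10 and 30.9, 32 and 33.5% in MSC-EVs-treated rd10. The MSC-EVs libraries had the highest shares of the 9, and WT and NS-treated libraries overlapped. Glra2 held the largest share in every library, with means of 46.6% ± 3.28 (SD, n = 3) in WT, 46.3% ± 2.39 in NS-treated and 35% ± 1.66 in MSC-EVs-treated rd10. Glra3 had mean shares of 24.6% ± 4.01, 32.7% ± 1.68 and 27.9% ± 1.36 in that order, and Glra4 of 6.86% ± 0.667, 7.18% ± 0.617 and 4.99% ± 1.29.

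**Figure D3:**
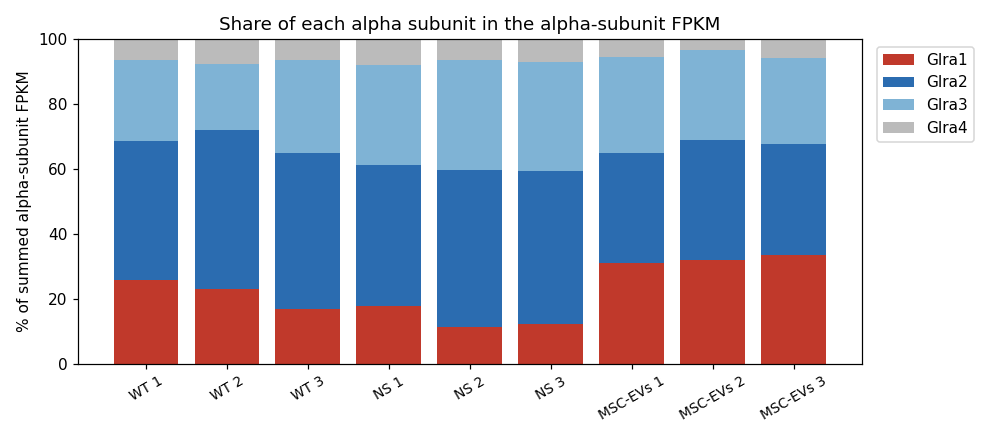
Share of Glra1, Glra2, Glra3 and Glra4 in the summed FPKM of the 4 alpha subunits (vertical axis, percent) for each of the 9 libraries. The Glra1 segment is between 30.9 and 33.5% in MSC-EVs-treated libraries and between 11.4 and 25.8% in the others.

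Between NS-treated rd10 and WT the mean share of Glra1 differed by -8.14 percentage points and that of Glra3 by 8.11 points, and the shares of Glra2 and Glra4 by -0.295 and 0.327 points. The WT and NS-treated libraries overlapped for Glra1, Glra2 and Glra4 and were separate for Glra3. The summed alpha FPKM per Glrb FPKM was 0.555 ± 0.0309 (SD, n = 3) in WT, 0.544 ± 0.0344 in NS-treated and 0.698 ± 0.0413 in MSC-EVs-treated rd10. Since the Glra1 values of the rd10 libraries chose the family and enter every share and the sum, these values are a description with no test.

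The partners of the receptor were followed in a list of 15 genes of glycine release, uptake, receptor anchoring, chloride balance and glycine turnover. Between NS-treated rd10 and WT, 7 were called higher, 2 lower and 6 did not pass, with a median log2 difference of 0.19. Among all 14644 genes tested 31.2% were called higher and 30.1% lower, 8972 in all, so the share of the list called in either direction was near that of all genes and is no result about the list. Scaled to the inner retinal markers, 2 were called higher and 5 lower, and Slc32a1 and Slc12a2, described next, were among those no longer called (edgeR adjusted p 0.957 and 0.708). Slc32a1 is itself 1 of the amacrine markers that set this scale. On the presynaptic side, the vesicular transporter Slc32a1 rose by 0.28 ± 0.06 (SE, edgeR adjusted p 0.00132), from 81.7 to 99.3 CPM. The glial and amacrine glycine transporter Slc6a9 rose by 0.20 ± 0.08 (SE, edgeR adjusted p 0.0411), although the sign turned to -0.08 when libraries were scaled to the inner retinal markers. That call was also lost without WT replicate 1, 2 or 3 or without NS replicate 1 or 3, with edgeR adjusted p of 0.0557 to 0.164. The neuronal glycine transporter Slc6a5 was at 34.9 CPM in WT and 38.2 CPM in NS-treated rd10 and did not pass (edgeR adjusted p 0.242).

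At the postsynaptic side, gephyrin (Gphn), the scaffold that Glrb binds, rose by 0.27 ± 0.07 (SE, edgeR adjusted p 0.00378). Neuroligin 2 (Nlgn2), the adhesion protein of inhibitory synapses, rose by 0.20 ± 0.06 (SE, edgeR adjusted p 0.0163). On the scale of the inner retinal markers these genes were at -0.003 and -0.08 and neither passed, with edgeR adjusted p of 0.977 and 0.373. With 1 library left out, the Nlgn2 call was lost without WT replicate 3 (0.0601) or NS replicate 1 (0.0552). The chloride importer Slc12a2 rose by 0.32 ± 0.07 (SE, edgeR adjusted p 0.001), while the exporter Slc12a5, at 840 CPM in WT and 867 CPM in NS-treated rd10, did not pass (0.04, edgeR adjusted p 0.566). The direction of Slc12a5 went with the scale. It was lower on the inner retinal scale, at -0.23 (edgeR adjusted p 0.0195). On log2(FPKM + 1) it was higher, at 0.21 (limma adjusted p 0.0112).

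The largest differences that passed were in glycine turnover and transport. Gldc, the glycine decarboxylase of the cleavage system, went from 36.6 CPM ± 0.985 (SD, n = 3) in WT to 82.7 ± 3.39 in NS-treated rd10, a log2 rise of 1.18 ± 0.06 (SE, edgeR adjusted p 1.8e-08). Slc38a5, a transporter of glutamine and glycine, rose by 1.26 ± 0.36 (SE, edgeR adjusted p 0.00944) from 0.84 to 2.05 CPM. Its level was low and spread, at 1.28, 3.09 and 1.79 CPM in NS-treated replicates 1, 2 and 3. Without NS replicate 2 its log2 difference was 0.85 (edgeR adjusted p 0.0486). By contrast, the other cleavage system genes Gcsh and Dld fell by 0.36 and 0.22 on the log2 scale, with edgeR adjusted p of 0.000416 and 0.0034, and Amt was at -0.14 (adjusted p 0.32). On log2(FPKM + 1) Dld did not pass (-0.04, limma adjusted p 0.568). Slc7a10 (1.19, adjusted p 0.0528), Shmt1 (-0.02, adjusted p 0.932) and Shmt2 (-0.14, adjusted p 0.101) did not pass in the main edgeR fit either. The Slc7a10 call depended on the setting. It passed in edgeR with upper-quartile normalization (adjusted p 0.044) and with no filter (0.0454). It also passed without WT replicate 3 (0.0348) or NS replicate 2 (0.00751). On log2(FPKM + 1) it was at 0.10 (limma adjusted p 0.625). On the scale of the inner retinal markers Shmt2 (-0.41, edgeR adjusted p 0.00186) and Amt (-0.41, adjusted p 0.0293) were called lower, and Amt was also called without NS replicate 2 (-0.28, adjusted p 0.0276). Markers of Müller glia also moved, with 9 of 10 called higher and a median log2 difference of 0.93; their part in the Gldc and Slc38a5 values was not tested.

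With MSC-EVs against NS, 0 of the 15 genes were called by edgeR, and 0 by DESeq2 and by limma on FPKM, while 1, Gcsh, had an unadjusted p under 0.05. With 1.16% of all genes called in this contrast, a count of 0 is no result about the list. The median log2 difference of the list was -0.06, beside -0.002 over all genes fitted, and the range was -0.25 to 0.18. Gldc was at 84.5 CPM ± 18.2 (SD, n = 3), Gphn at 73.2 ± 1.11 and Slc32a1 at 95.1 ± 2.08 in MSC-EVs-treated rd10, each with a log2 difference from NS within 0.06 of 0. Of the marker lists, 1 of 9 AII and glycinergic amacrine genes and 1 of 12 bipolar genes were called lower, and none of 10 amacrine, 10 ganglion cell, 10 rod, 8 cone or 10 Müller glia genes were called in either direction. The AII and glycinergic list summed to 1750, 1610 and 1860 CPM in MSC-EVs-treated libraries and to 1850, 1770 and 1980 CPM in NS-treated ones, and the ganglion cell list to 1430, 1390 and 1580 CPM against 1600, 1410 and 1600 CPM. The Müller glia markers summed to 7120, 7010 and 6920 CPM with MSC-EVs against 8750, 7570 and 8490 CPM with NS, and the cone markers to 1420, 1370 and 1560 CPM against 1610, 1670 and 1600 CPM, so for both lists every MSC-EVs library was below every NS-treated one. Their part in the Glra1 values was not tested.

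**Figure D4:**
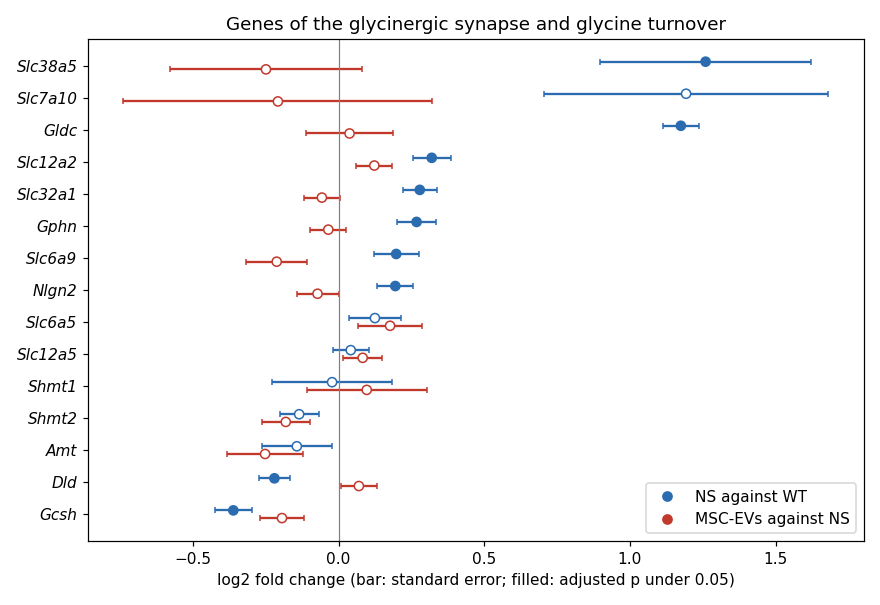
Log2 fold change (horizontal axis) of the 15 genes of the glycinergic synapse and glycine turnover, NS-treated rd10 against WT in blue and MSC-EVs-treated against NS-treated rd10 in red, with standard errors as bars and filled points where the edgeR adjusted p was under 0.05. Of the blue points 9 are filled, with Slc38a5 and Gldc farthest to the right, and of the red points 0 are.

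Over the 9 libraries, the subunits other than Glra1 varied together more than with it. The rd10 values of Glra1 chose the family, so its standing apart is no separate result. The correlations also carry the differences between groups given above. As a description, with libraries of 3 groups pooled, Pearson's r of log2 CPM was 0.97 between Glra2 and Glrb, 0.88 between Glra3 and Glrb and 0.87 between Glra2 and Glra3. Glra4 had r of 0.68 with Glrb and with Glra2 and 0.5 with Glra3. Glra1 had r of 0.33 with Glra3, 0.12 with Glrb, 0.01 with Glra4 and -0.01 with Glra2.

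The genes whose pattern over the 9 libraries was most like that of Glra1, among 13823 genes, were Mtmr9 (r = 0.983), Mbnl2 (0.982), Ralgapa1 (0.98), Prrc2b (0.97) and 2610507B11Rik (0.969). In each of these 5 genes the MSC-EVs libraries lay above all others, by smaller ratios than for Glra1. The genes were picked for likeness to Glra1 over the same libraries, so that order is no separate result. Prrc2b ranged from 526 to 558 CPM in WT and from 502 to 577 CPM in NS-treated rd10, and from 707 to 712 CPM with MSC-EVs. Mtmr9 ranged from 63.1 to 72.4, from 60.4 to 71.1 and from 80.1 to 84.1 CPM in the same order. An r over 0.8 with Glra1 was found for 2.61% of the genes, and these points share groups, libraries and depth.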

How the data were processed

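The members and the gene lists were chosen with earlier results of these data known. Retinal poly(A) RNA of 9 libraries was sequenced on an Illumina platform, and the authors deposited 1 table that gives, for each gene, an expected count (estimated counts, not scaled) and an FPKM in every library. The submitters' processing notes name fastp, Bowtie2, HISAT2, StringTie 1.3.1 and RSEM without saying what each did, and the build and annotation are not given in the sources used here. Decimals were found in 9.16 to 11.7% of estimated counts, and they were rounded, since the planned test needs counts. Each pair of groups was fitted with edgeR 4.0.16 in R 4.3.3 (filterByExpr, TMM, glmQLFit robust, glmQLFTest). The SE is the absolute log2 fold change over the square root of F. Alternatives used DESeq2 1.42.0, limma 3.58.1 on log2(FPKM + 1) or log2(FPKM + 0.1), other scalings and filters, a replicate block and left-out libraries. The script was tested on simulated data.

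The deposited FPKM values, normalized by the authors for length and total counts, compare genes. Between NS-treated rd10 and WT the median difference over all genes was 0.14 on log2(FPKM + 1), the higher being rd10. On log2(FPKM + 0.1) it was 0.17. Groups were compared on TMM-scaled counts. The test planned for Glra1 and for the alpha subunit shares in NS-treated rd10 against WT is not given, because the Glra1 values of the NS-treated libraries entered the choice of members. The genes named are the subunits, the 15 glycine synapse genes, the 5 genes most correlated with Glra1 and markers that bear on a result. One horizontal cell marker was not matched, and 2 listed genes are not reported here. Nothing in the labels says that libraries came from separate animals, so p-values measure the spread between these samples, which may in part be technical. By the Y-linked genes, MSC-EVs replicate 3 was not from the same animals as replicates 1 and 2. Those genes do not tell the libraries within WT or NS apart. Transcripts and positions came from GENCODE M21 on GRCm38, and coding sequences were aligned with MAFFT 7.526.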

Additional observations from a re-analysis of the deposited data

How the results depend on the processing

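Counts of called genes moved beyond a factor of 1.5 with the scaling and the fold limit. Scaled to inner retinal markers, 1 subunit in place of 3 was called higher in NS-treated rd10 against WT and 1 in place of 3 with MSC-EVs against WT. Under an added limit of 1 on the absolute log2 fold change, 0 subunits, 2 of the synapse genes in place of 9, and 0 of the 4 subunits tested with MSC-EVs were called. Over all genes that limit left 1863 of 14644 called in NS-treated rd10 against WT and 1784 of 14623 with MSC-EVs against WT. With shares that low, the counts under this limit are no result about the members. Scaling to inner retinal markers turned the sign of 4 synapse genes called on either scale, Slc6a9 (-0.08), Gphn (-0.003), Nlgn2 (-0.08) and Slc12a5 (-0.232) in NS-treated rd10 against WT. This scaling lowered the differences by similar amounts, with the median over all genes going from 0.01 to -0.27. Small positive differences therefore turned sign by the scaling itself. Which scale fits the retina better was not tested. The remaining 87 recomputed counts and main values kept their call or moved by less than the limit set (a factor of 1.5 for counts, 1 SD for values without a test). Among these 87 are the synapse counts between the rd10 groups, which were 0 throughout. They also hold Glra1 values and shares from libraries that chose the family. The number 87 is therefore no measure of how firm the results are.

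With 1 library left out, the subunits called were 3 to 4 in NS-treated rd10 against WT and 2 to 3 with MSC-EVs against WT, the synapse genes called were 7 to 12 and 0, and the difference in Glra1 share was -10.7 to -6.18 points. The log2 difference of Glra1 between the rd10 groups was 1.27 to 1.76 with 1 library left out and 1.23 to 1.55 under the other settings. Over all genes, 172 were called between the rd10 groups by edgeR, 930 by DESeq2, 449 with inner retinal scaling (441 of them higher) and 1026 with all 9 libraries in the fit. After NS replicate 3 was left out, or MSC-EVs replicate 1, edgeR called 0, with 1991 and 2052 genes at an unadjusted p under 0.05, no other tool having been run on those libraries.

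Libraries with the same number did not all deviate together between WT and the rd10 groups (r from -0.074 to 0.073). Between the rd10 groups the r of replicates 1, 2 and 3 with their own number was 0.089, 0.197 and 0.284. The r between unlike numbers there was negative throughout, so each of the 6 rd10 libraries correlated best with its own number. The labels name no pairs, and the main fits used none. Whether the rd10 libraries were paired was not tested. With a replicate block, 3 subunits and 9 synapse genes were called in NS-treated rd10 against WT, 3 subunits with MSC-EVs against WT and 0 synapse genes between the rd10 groups, the Glra1 difference there was 1.49, and all genes called went from 172 to 403. With 36 to 181 counts per MSC-EVs library, Glra4 was the subunit limited most by depth.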
